A study of Homo sapiens with 6 samples.

Results

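The genes of the proteasome and of its control were followed in THP-1 cells, a human acute monocytic leukaemia line, with and without monensin. They were taken by symbol: all genes named PSMA to PSMG followed by a number, together with POMP, ADRM1, NFE2L1 and DDI2. This gave 52 of the 58395 genes in the count tables. One group of 3 libraries came from cells with no exposure, with no vehicle named, and the other group of 3 came from cells given 1 µM monensin for 16 h. Monensin is an ionophore that exchanges sodium ions for protons across membranes. All cells were grown in RPMI medium with 10% serum. The labels give no origin of the replicates as separate cultures, so the p-values measure only how these samples vary, and that spread may be technical.

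The proteasome is the protease that degrades ubiquitin-tagged proteins. Its barrel-shaped core is built of rings of PSMA subunits around rings of PSMB subunits, and the catalytic sites belong to PSMB5, PSMB6 and PSMB7. In cells of the immune system, PSMB8, PSMB9 and PSMB10 can take the places of those subunits and give the immunoproteasome, which favours peptides for presentation on MHC class I. The regulatory particle, made of PSMC ATPases and PSMD subunits, binds ubiquitin chains, removes them and unfolds the substrate. PSME proteins are alternative caps, and PSMG proteins and POMP assemble the core. Transcription of proteasome genes is known to be raised by NFE2L1, a factor held in the endoplasmic reticulum (ER) membrane, extracted by VCP, deglycosylated by NGLY1, cut by the protease DDI2 and active as a partner of small MAF proteins.

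Gene counts per library ran from 22975888 to 25710513. Levels are given as CPM, counts scaled to TMM-adjusted library sizes, or as CPM per kb of exon where genes are compared with each other. A log2 fold change is that of monensin against untreated, and adjusted p-values come from edgeR's quasi-likelihood test with Benjamini-Hochberg adjustment over the 16542 genes tested, called at 0.05. Because CPM is a share of each library, fewer cells of a type and less RNA per cell cannot be told apart. Of the monocytic markers, LYZ (775 to 804 CPM without exposure against 270 to 318 CPM with monensin), CD33 (128 to 140 against 98.9 to 104 CPM) and MPO (6.27 to 7.59 against 4.28 to 4.48 CPM) were lower with monensin. SPI1 was higher with monensin (279 to 293 against 346 to 385 CPM), and ITGAM and CSF1R overlapped between 45.3 and 68.9 CPM. Their part in the results was not tested. CD3E and EPCAM, markers of T cells and epithelium, had no count in any library, and MS4A1, a B cell marker, had at most 0.0401 CPM.

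Most proteasome genes fell by less than 2-fold after monensin. Of the 52 genes, 50 passed the filter on low counts, and 36 of these were lowered (72.0%), 3 were raised (6.0%) and 11 were not called. Over all tested genes, 33.7% were lowered and 34.1% were raised. In 33 members (66.0%) each monensin library lay below each untreated library, against 35.2% of all tested genes. The median log2 fold change was -0.21 for the members and 0.02 for all tested genes. Changes were small: they ran from -0.79 for PSME3 to 0.69 for NFE2L1, so none of the members reached a 2-fold change, a size that 13.2% of all tested genes reached with a call. With trends in GC content and length removed, 32 members were lowered and 7 raised. Of the 36 lowered members 30 stayed lowered and 6 did not, and 2 others, PSME1 and PSMB10, were newly lowered. Of the members that kept their call, 10 had a log2 fold change over 1.5 times larger under that setting, among them ADRM1 (-0.66), PSMB6 (-0.52), PSMA7 (-0.45), PSMB5 (-0.44), PSMB7 (-0.33) and PSMB8 (-0.33). In 4 it was smaller by over 1.5 times: PSMD12 (-0.40), DDI2 (-0.36), PSMA2 (-0.19) and PSMA3 (-0.15). The authors' deposited table of regulated genes starts at an absolute log2 fold change of 1.0 and holds 0 of the 52 members.

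The 3 raised members were NFE2L1, PSMB9 and PSMD4. The untested members were PSMA8, a testis form of an alpha subunit, and PSMB11, the thymus form of a catalytic subunit. PSMA8 had 0 counts in each library, which allows up to 0.117 to 0.129 CPM, the value of 3 counts. PSMB11 had 1 count, in an untreated library. The share of gene counts that fell on the 52 genes together was 0.688% ± 0.0157 without exposure and 0.619% ± 0.0103 with monensin (mean ± SD, n = 3 per group).

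**Figure D1:**
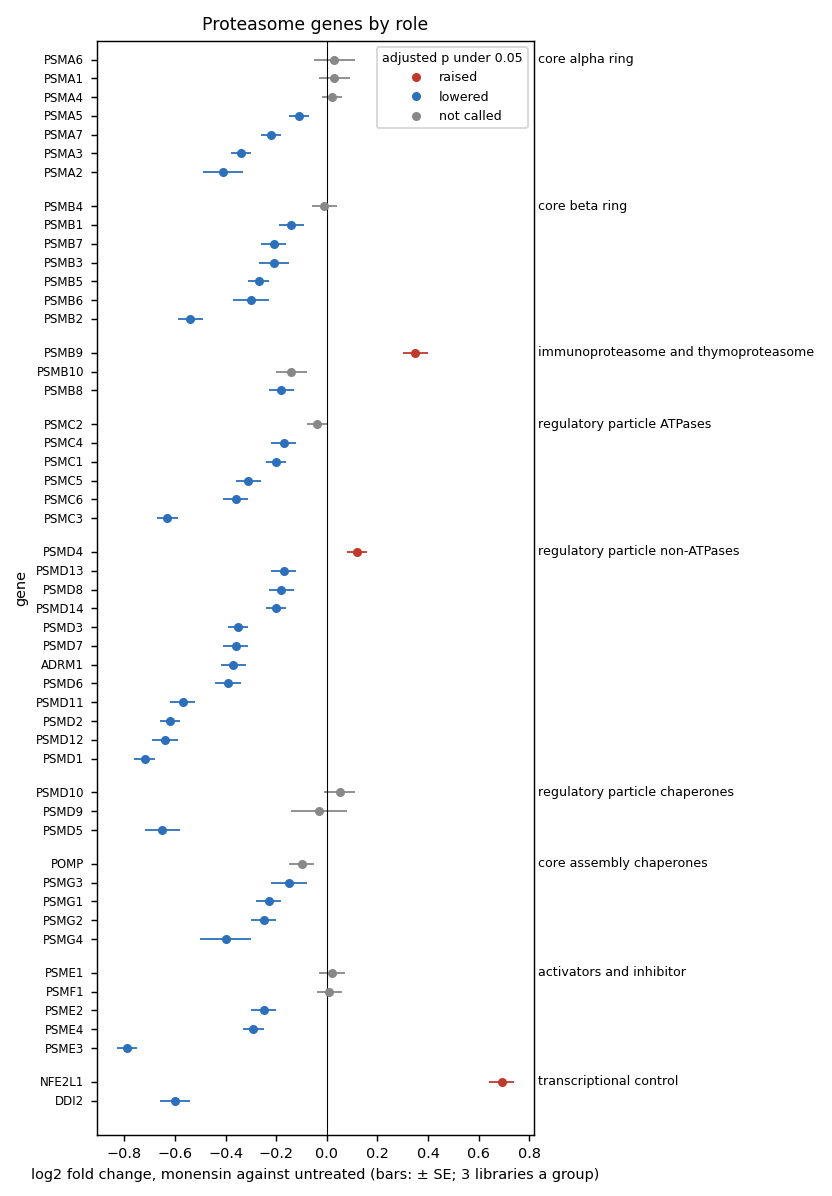
Log2 fold change (x axis, ± SE) of the 50 tested proteasome genes, monensin against untreated, with genes on the y axis in blocks by role and coloured by their call at an adjusted p under 0.05. Most points lie left of 0, with PSME3 at -0.79 and PSMD1 at -0.72 farthest left, while NFE2L1 at 0.69, PSMB9 at 0.35 and PSMD4 at 0.12 are the 3 raised genes.

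The genes for the control of proteasome transcription moved in opposite directions. NFE2L1, on chromosome 17 from 48048329 to 48061487, stood at 133, 136 and 145 CPM in the untreated libraries and at 234, 219 and 217 CPM in the monensin libraries. All 3 monensin libraries were above all untreated ones, and the log2 fold change was 0.69 (SE 0.05, adjusted p = 3.21e-09). DDI2, the protease that cuts the NFE2L1 protein, had 44.9, 50 and 51.8 CPM without exposure and 32.2, 33.3 and 31.0 CPM with monensin. Its groups did not overlap either, at 65.8% of the untreated level (log2 fold change -0.60, SE 0.06, adjusted p = 3.84e-07). DDI2 shares 15.3% of its exonic bases with RSC1A1 on the same strand.

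The promoters of the members were searched for the letters of known binding sites, to show which carry them. The RefSeq promoter table on GRCh38.p14 held 46 of the 52 members, and the 250 bases before each start were searched on both strands. The antioxidant response element, bound by NFE2L1 and its relatives with MAF proteins, was searched as TGACNNNGC. It was found in 12 of 46 members (26.1%) and in 10.9% of all 35116 promoters. Windows of 30 bases are printed below for 5 of the 12, chosen to span the regulatory particle, its chaperone PSMD5, the core and the immunoproteasome. They are written 5′ to 3′ on the strand of the gene, with the match in capitals. In PSMB9 the match is on the opposite strand and so appears as its reverse complement.
PSMD3, chr17:39980760-39980789, plus strand: tcccctttgtTGACTCGGCcatcggcctgc
PSMD12, chr17:67366723-67366752, minus strand: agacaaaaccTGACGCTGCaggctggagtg
PSMD5, chr9:120843037-120843066, minus strand: tggctacagtTGACACGGCcctaacggagg
PSMB3, chr17:38752627-38752656, plus strand: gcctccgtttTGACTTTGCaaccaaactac
PSMB9, chr6:32854034-32854063, plus strand: gggcggggctGCCTCGTCActtgtctcggg

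Of the 12 members with the element, 9 were lowered, 1 was raised (PSMB9) and 2 were not called (PSME1 and PSMD9). This is near the split of all 50 tested members, of which 72.0% were lowered and 6.0% raised. Those not printed are ADRM1, PSME1, PSME2, PSME4, PSMD9, PSMG1 and PSMG2. A match is a description of letters and not evidence of binding.

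The core of the interferon-stimulated response element was searched as GAAANNGAA and was found in 6 of 46 members (13.0%), against 6.88% of all promoters. The 6 were PSMA4, PSMB4, PSMB10, PSME2, PSMG4 and POMP. PSMB10, PSME2 and PSMG4 carry the same letters inside the element. PSMB10 and PSME2 are printed because they are known to be interferon-inducible, whereas PSMG4 is a core assembly chaperone.
PSMB10, chr16:67936852-67936881, minus strand: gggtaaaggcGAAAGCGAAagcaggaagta
PSME2, chr14:24146619-24146648, minus strand: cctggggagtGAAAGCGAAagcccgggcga

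The CCAAT box, searched as CCAAT, was in 20 members (43.5%) and in 32.0% of all promoters. The gamma-activated site, searched as TTCNNNGAA, was in 5 members (10.9%) and in 6.57% of all promoters. The element of C/EBP and ATF factors, searched as TGATGNAAT, was in 0 members and in 0.888% of all promoters.

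In the core, 10 of 14 tested genes were lowered and 0 were raised, with a median log2 fold change of -0.21, or -0.12 with scaling by total counts. The alpha ring, the outer ring that gates entry, had 4 of 7 lowered, beside 33.7% of all tested genes. PSMA2 read 13.6, 14.1 and 14.4 CPM without exposure and 9.74, 10.4 and 11.6 CPM with monensin (log2 fold change -0.41, SE 0.08, adjusted p = 2.90e-04). PSMA3 had 176, 175 and 162 CPM in the untreated libraries and 132, 137 and 136 CPM in the monensin libraries (log2 fold change -0.34, SE 0.04, adjusted p = 5.88e-06). For PSMA7 the 3 untreated values were 283, 276 and 268 CPM and the monensin values 231, 232 and 249 CPM (log2 fold change -0.22, SE 0.04, adjusted p = 3.65e-04). The groups were separate for these 3 genes.

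PSMA5 was called at -0.11 (SE 0.04, adjusted p = 0.0319) with overlapping groups. It missed the threshold when untreated replicate 1 or 2 or monensin replicate 1 or 2 was left out (adjusted p from 0.0598 to 0.15). PSMA1, PSMA4 and PSMA6 were not called, with log2 fold changes of 0.02 to 0.03. With trends in GC content and length removed, PSMA4 (0.24), PSMA5 (0.13) and PSMA6 (0.29) were called as raised on the log2 scale. PSMA1, PSMA2 and PSMA6 share 24.7%, 14.6% and 14.1% of their exonic bases with another gene on the same strand. The processed copy PSMA6P1 held 307 to 399 counts in the untreated libraries, more than the 221 to 250 counts of PSMA6 itself, so their counts may be divided between copies and are uncertain.

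In the beta ring, which holds the catalytic sites, 6 of 7 genes were lowered and PSMB4 was not called (log2 fold change -0.01, adjusted p = 0.914). The lowest value was that of PSMB2, a subunit of the ring without a catalytic site. It had 137, 140 and 128 CPM in the untreated and 90.4, 96.0 and 93.0 CPM in the monensin libraries, or 69.0% of the untreated level (log2 fold change -0.54, SE 0.05, adjusted p = 6.64e-08).

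Transcripts of the catalytic subunits fell together. PSMB5, which cuts after hydrophobic residues, had 133, 130 and 125 CPM without exposure and 106, 108 and 108 CPM with monensin (log2 fold change -0.27, SE 0.04, adjusted p = 4.29e-05). PSMB6, which cuts after acidic residues, went from 61.5, 57.7 and 53.4 CPM to 46.4, 43.0 and 51.3 CPM (log2 fold change -0.30, SE 0.07, adjusted p = 0.00116). PSMB7, which cuts after basic residues, went from 104, 105 and 101 CPM to 86.0, 86.7 and 96.4 CPM (log2 fold change -0.21, SE 0.05, adjusted p = 0.00202). In each of the 3 genes every monensin library was below every untreated one, although monensin replicate 3 came close for PSMB6 and PSMB7.

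PSMB1 and PSMB3 were called at -0.14 and -0.21 on the log2 scale. PSMB3 had overlapping groups, and neither was called with scaling by total counts (adjusted p = 0.277 for PSMB1 and 0.0626 for PSMB3). PSMB1 also missed the threshold without untreated replicate 2, monensin replicate 1 or monensin replicate 2 (adjusted p from 0.0507 to 0.0714).

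The 3 immunoproteasome genes parted from each other: PSMB9 rose, PSMB8 fell and PSMB10 was not called, with a median log2 fold change of -0.14. That median was -0.33 with GC and length trends removed, -0.06 with scaling by total counts, -0.09 without monensin replicate 1 and -0.21 without monensin replicate 3. PSMB9, which replaces PSMB6, had 49.7, 47.3 and 48.2 CPM in the untreated libraries and 59.0, 61.1 and 65.4 CPM in the monensin libraries. Every monensin library was above every untreated one (log2 fold change 0.35, SE 0.05, adjusted p = 2.52e-05), at 128% of the untreated level. PSMB8, which replaces PSMB5, had 282, 277 and 273 CPM without exposure and 235, 234 and 263 CPM with monensin (log2 fold change -0.18, SE 0.05, adjusted p = 0.00273). Its groups were separate, but with scaling by total counts the change was -0.10 and not called (adjusted p = 0.056).

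PSMB10, which replaces PSMB7, had 45.9, 50.8 and 46.9 CPM in untreated and 40.1, 42.9 and 47.2 CPM in monensin libraries (log2 fold change -0.14, SE 0.06, adjusted p = 0.0607). The groups overlapped through monensin replicate 3. Without that library PSMB10 was called at -0.21 (adjusted p = 0.00659), without untreated replicate 1 at -0.18 (adjusted p = 0.0332), and with GC and length trends removed at -0.42 (adjusted p = 5.43e-06). PSMB10 shares 34.8% of its exonic bases with AC040162.1 on the same strand, so reads in that stretch could be left uncounted.

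PSMB8 and PSMB9 are neighbours in the MHC region of chromosome 6, from 32840717 to 32844703 and from 32844136 to 32859585. Opposite directions in neighbouring genes were thus measured. PSMB8 shares 20.6% of its exonic bases with genes on the opposite strand. PSMB9 shares 4.52% with PSMB8 on the opposite strand and 5.66% with PSMB8-AS1 on the same strand. Whether the counting used strand was not given in the sources used here.

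**Figure D2:**
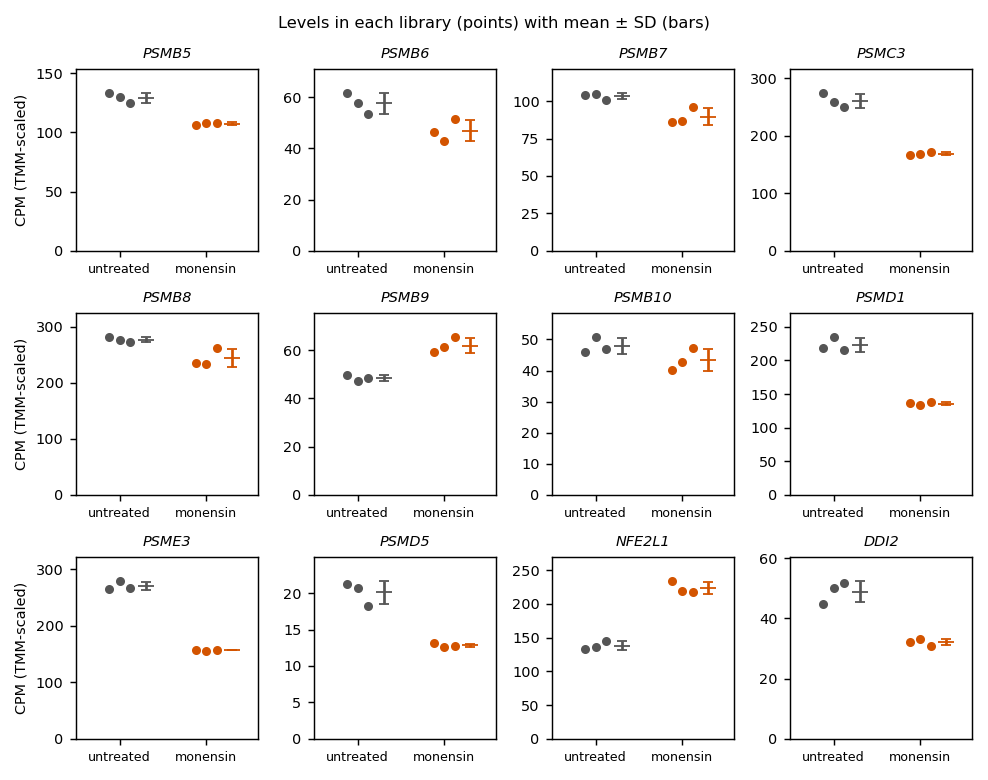
TMM-scaled CPM (y axis, linear from 0) of 12 proteasome genes in the 3 untreated and 3 monensin libraries, 1 point a library, with mean ± SD beside them. PSMB9 and NFE2L1 are higher in all monensin libraries, PSMB10 overlaps between groups, and the other 9 genes are lower in all monensin libraries.

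Per kb of exon, each immunoproteasome gene was set against the constitutive subunit that it replaces. The ratio of PSMB9 to PSMB6 was 0.381, 0.386 and 0.426 without exposure and 0.599, 0.669 and 0.601 with monensin, a log2 ratio of means of 0.65. PSMB9 rose and PSMB6 fell, so both contributed to the higher ratio. The ratio of PSMB8 to PSMB5 was 1.25, 1.25 and 1.28 in untreated and 1.30, 1.28 and 1.43 in monensin libraries, with a shared value at 1.28. The ratio of PSMB10 to PSMB7 overlapped, at 0.424, 0.469 and 0.446 against 0.449, 0.477 and 0.472. Of the 3 pairs, PSMB9 with PSMB6 was the one whose ratios did not overlap between the groups.

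The immunoproteasome held 44.0% ± 0.559 of the summed CPM per kb of the 6 catalytic genes in untreated and 46.5% ± 0.607 in monensin libraries (n = 3 per group). These shares depend on the exon length used: with the longest transcript of each gene they were 39.1% ± 0.554 and 41.4% ± 0.549. No p-value is given for sums and ratios over members.

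**Figure D3:**
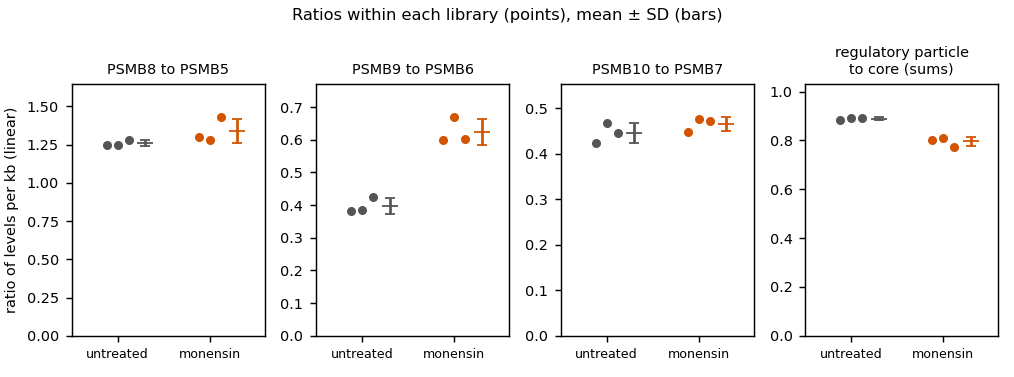
Ratios of CPM per kb (y axes, linear from 0) within each library for the 3 immunoproteasome genes over the subunits they replace, and for the regulatory particle over the core, with 1 point a library and mean ± SD beside them. PSMB9 to PSMB6 is higher in all monensin libraries (0.599 to 0.669 against 0.381 to 0.426), and regulatory particle to core is lower (0.775 to 0.809 against 0.884 to 0.894).

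Nearly all genes of the regulatory particle were lowered. Of its 18 genes taken by symbol, 16 were lowered, 1 was raised and 1 was not called, with a median log2 fold change of -0.35. SEM1, a subunit outside the PSM names, is not among the 18. Summed over these 18 genes, the regulatory particle went from 795 ± 24.8 to 629 ± 15.5 CPM per kb, and the core from 893 ± 31.9 to 790 ± 37.3 CPM per kb (n = 3 per group). Within each library the ratio of the former to the latter was 0.884, 0.893 and 0.894 without exposure and 0.804, 0.809 and 0.775 with monensin. All monensin ratios lay below all untreated ratios, and the difference between the core and the regulatory particle was not tested.

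Among the ATPases, which unfold substrates at the base of the particle, 5 of 6 were lowered. PSMC3 had 274, 258 and 249 CPM in untreated and 167, 168 and 171 CPM in monensin libraries, 64.8% of the untreated level (log2 fold change -0.63, SE 0.04, adjusted p = 4.86e-09). PSMC6 had 113, 113 and 105 CPM without exposure and 84.9, 89.3 and 84.7 CPM with monensin (log2 fold change -0.36, SE 0.05, adjusted p = 7.15e-06). PSMC5 went from 199, 195 and 185 CPM to 154, 149 and 165 CPM (log2 fold change -0.31, SE 0.05, adjusted p = 2.97e-05). These groups were separate, and the change of PSMC3 was the largest of the 6.

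PSMC1 and PSMC4 had log2 fold changes of -0.20 and -0.17, and PSMC2 was not called (-0.04, adjusted p = 0.476). With GC and length trends removed, PSMC6 lost its call (-0.08, adjusted p = 0.105) and PSMC2 was called as raised (0.18). PSMC4 was not called with scaling by total counts (adjusted p = 0.0948). PSMC1 shares 75.8% of its exonic bases with NRDE2 on the opposite strand.

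Of the 12 non-ATPase subunits among the members, 11 were lowered. PSMD1 and PSMD2 are the large scaffolds that dock ubiquitin-binding proteins. PSMD1 had 219, 235 and 216 CPM in the untreated libraries and 136, 133 and 138 CPM in the monensin libraries (log2 fold change -0.72, SE 0.04, adjusted p = 1.13e-09). PSMD2 had 399, 409 and 397 CPM without exposure and 257, 265 and 263 CPM with monensin (log2 fold change -0.62, SE 0.04, adjusted p = 9.62e-10). Both scaffolds thus fell to 60.8% and 65.0% of their untreated levels, with little spread among the monensin libraries.

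PSMD12, a subunit of the lid that holds the deubiquitinase, went from 146, 148 and 134 CPM to 92.2, 95.3 and 87.4 CPM (log2 fold change -0.64, SE 0.05, adjusted p = 2.05e-08). PSMD11, also of the lid, was lowered to 67.5% of the untreated level. The other lowered lid subunits, PSMD3, PSMD6, PSMD7, PSMD8, PSMD13 and PSMD14, had log2 fold changes of -0.39 to -0.17. PSMD14 is the deubiquitinase itself and fell by 0.20 on the log2 scale. With GC and length trends removed PSMD6 (adjusted p = 0.0754) and PSMD14 (adjusted p = 0.421) were not called. PSMD8 and PSMD13 were not called with scaling by total counts (adjusted p = 0.0975 and 0.115), nor was PSMD8 without monensin replicate 1 (adjusted p = 0.053).

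The ubiquitin receptors ADRM1 and PSMD4 went apart. ADRM1 had 155, 150 and 141 CPM in the untreated and 110, 116 and 119 CPM in the monensin libraries (log2 fold change -0.37, SE 0.05, adjusted p = 5.66e-06). PSMD4 had 217, 205 and 203 CPM without exposure and 222, 222 and 235 CPM with monensin, and was the 1 regulatory particle gene called as raised (log2 fold change 0.12, SE 0.04, adjusted p = 0.0215). The groups of PSMD4 were separate by a narrow gap. Its call was lost without untreated replicate 2, untreated replicate 3 or monensin replicate 3 (adjusted p from 0.0632 to 0.117), and its log2 fold change was -0.00888 with GC and length trends removed.

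Untreated levels per kb spread widely among the subunits. In the untreated libraries PSMA7 stood highest at 157 ± 4.39 CPM per kb, followed by PSMB3 at 147 ± 6.05, PSMB4 at 130 ± 5.23 and PSMC3 at 114 ± 5.69. After monensin PSMB4, which was not called, stood at 130 ± 7.17, next to PSMA7 at 136 ± 5.99 and PSMB3 at 127 ± 11.6, and these 3 overlapped. This order depends on the exon length used. With the longest transcript the untreated levels were 269 CPM per kb for PSMA7, 224 for PSMB3, 165 for PSMC3, 154 for PSMD4 and 136 for PSMB4, and after monensin PSMA7 at 232, PSMB3 at 194 and PSMB4 at 136 lay apart. PSMC3 fell to 74.2 ± 0.781 CPM per kb, next to PSMD4 at 74.8 ± 2.39. At the low end PSMA2 had 2.63 ± 0.0799 and PSMA6 1.48 ± 0.0612 CPM per kb without exposure, and both share exons with other genes, where reads may have been left uncounted.

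The assembly factors were lowered in part, 5 of 8, beside 33.7% of all tested genes. Their median log2 fold change was -0.19 (-0.10 with scaling by total counts and -0.29 with GC and length trends removed). Among the chaperones of the regulatory particle base PSMD5 fell, while PSMD9 and PSMD10 were not called. PSMD5 had 21.3, 20.7 and 18.3 CPM in untreated and 13.1, 12.6 and 12.8 CPM in monensin libraries (log2 fold change -0.65, SE 0.07, adjusted p = 1.40e-06). PSMD10 had 49.6, 45.9 and 48.0 CPM without exposure and 48.0, 47.9 and 52.8 CPM with monensin (log2 fold change 0.05, SE 0.06, adjusted p = 0.445). PSMD9 had 7.18, 5.75 and 6.80 CPM in the untreated and 6.19, 6.20 and 6.94 CPM in the monensin libraries (log2 fold change -0.03, SE 0.11, adjusted p = 0.801). PSMD9 and PSMD10 overlapped between groups, and PSMD10 was called as raised with scaling by total counts (0.14) and with GC and length trends removed (0.19). At 63.9% of the untreated level PSMD5 was the assembly factor with the largest change among those tested.

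The chaperones of the core, which pair as PSMG1 with PSMG2 and PSMG3 with PSMG4 to build the alpha ring, were lowered in all 4 genes. PSMG4 had 15.6, 15.6 and 12.0 CPM without exposure and 10.8, 10.6 and 11.5 CPM with monensin (log2 fold change -0.40, SE 0.10, adjusted p = 0.00194). PSMG2 had 79.1, 82.8 and 77.5 CPM in untreated and 66.1, 66.3 and 68.3 CPM in monensin libraries (log2 fold change -0.25, SE 0.05, adjusted p = 1.89e-04). PSMG1 went from 74.1, 70.6 and 67.9 CPM to 60.4, 58.1 and 63.2 CPM (log2 fold change -0.23, SE 0.05, adjusted p = 0.00118). The groups of these 3 genes were separate, while those of PSMG3 overlapped (log2 fold change -0.15, adjusted p = 0.0478). PSMG3 lost its call when untreated replicate 1 or 3 or monensin replicate 1 or 2 was left out (adjusted p from 0.0657 to 0.232).

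POMP, the maturation protein consumed by each new core, had 127, 122 and 115 CPM in the untreated and 111, 115 and 114 CPM in the monensin libraries. The groups met at 115 CPM and the change was not called (log2 fold change -0.10, SE 0.05, adjusted p = 0.0813), although it was called at -0.14 without untreated replicate 3 (adjusted p = 0.0219).

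Among the activators and the inhibitor, 3 of 5 were lowered, beside 33.7% of all tested genes. PSME3 forms the nuclear cap that works without ubiquitin, and it had the largest fall of any member tested. It had 265, 279 and 267 CPM in the untreated libraries and 157, 156 and 157 CPM in the monensin libraries, or 57.9% of the untreated level (log2 fold change -0.79, SE 0.04, adjusted p = 1.18e-10). The 3 monensin values lay between 156 and 157 CPM.

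The interferon-inducible cap is a ring of PSME1 and PSME2 together, and its genes did not move alike. PSME2 had 177, 174 and 174 CPM without exposure and 140, 147 and 156 CPM with monensin (log2 fold change -0.25, SE 0.05, adjusted p = 1.80e-04). PSME1 had 171, 169 and 164 CPM in untreated and 168, 162 and 179 CPM in monensin libraries (log2 fold change 0.02, SE 0.05, adjusted p = 0.778). PSME2 was separate between groups and PSME1 overlapped. This contrast between partners was not seen with GC and length trends removed, where PSME1 was lowered too (-0.18, adjusted p = 0.000392) beside PSME2 at -0.33.

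PSME4, a large single-chain cap, had 111, 117 and 118 CPM in the untreated and 94.2, 95.4 and 92.5 CPM in the monensin libraries (log2 fold change -0.29, SE 0.04, adjusted p = 2.32e-05). Its groups were separate, but it was not called with GC and length trends removed (-0.03, adjusted p = 0.514). PSMF1, described as an inhibitor of the core, was not called (log2 fold change 0.01, adjusted p = 0.909).

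Genes around the proteasome were taken from lists, which were chosen with earlier results of these data known. Of 30 tested, 10 were raised (33.3%), 14 were lowered (46.7%) and 6 were not called, with a median log2 fold change of -0.03. Beside this, 34.1% of all tested genes were raised and 33.7% lowered, with a median of 0.02. The raised share is thus near that background. DDI1, a testis relative of DDI2, had 0 counts in all libraries.

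Of 11 genes listed as partners of the proteasome, among them the subunit SEM1, 3 were raised and 4 lowered. Beside 34.1% raised and 33.7% lowered of all tested genes, the split is near that background. UCHL5, the deubiquitinase that ADRM1 recruits, had 189, 192 and 186 CPM without exposure and 103, 109 and 106 CPM with monensin (log2 fold change -0.84, SE 0.04, adjusted p = 1.10e-10). USP14, the other deubiquitinase of the particle, went from 142, 152 and 140 CPM to 104, 95.8 and 90.4 CPM (log2 fold change -0.58). UBE3C, a ligase on the proteasome, went from 161, 171 and 176 CPM to 108, 106 and 101 CPM (log2 fold change -0.69). ADRM1 and UCHL5, which bind each other, were thus both lowered. AKIRIN2, which brings proteasomes into the nucleus, rose from 35.3, 33.7 and 35.2 CPM to 66.3, 69.3 and 62.3 CPM (log2 fold change 0.93, SE 0.05, adjusted p = 7.31e-10). SEM1, a small subunit of the regulatory particle outside the PSM names, was not called (log2 fold change -0.01).

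Of 11 tested genes that process NFE2L1, bind DNA with it or are its relatives, 5 were raised and 4 lowered. Over all tested genes 34.1% were raised and 33.7% lowered, and a difference from that background was not tested. SYVN1, an ER ubiquitin ligase that takes part in NFE2L1 turnover, had 53.5, 53.9 and 57.2 CPM in the untreated and 139, 135 and 145 CPM in the monensin libraries (log2 fold change 1.35, SE 0.05, adjusted p = 2.44e-12). MAFG, a small MAF partner of NFE2L1, went from 159, 155 and 150 CPM to 325, 328 and 307 CPM (log2 fold change 1.05). In the authors' deposited table these genes are listed at 1.33 and 1.03. NFE2L2, a relative that binds the same element, rose by 0.46 on the log2 scale, and SEL1L, the partner of SYVN1, by 0.48. SEL1L had 81.1, 91.9 and 91.1 CPM in the untreated and 134, 126 and 107 CPM in the monensin libraries, with no overlap. The extraction complex went the other way: VCP fell by 0.21 and NPLOC4 by 0.14, and UFD1 went from 96.7, 94.6 and 91.2 CPM to 61.8, 67.6 and 67.1 CPM (log2 fold change -0.52). NGLY1 was not called (log2 fold change -0.03). The small MAF partners did not move alike: MAFF was raised (0.78 on the log2 scale, from 1.20 to 1.52 CPM without exposure) and MAFK was lowered (-0.19, adjusted p = 0.00778). With scaling by total counts NPLOC4 (-0.05, adjusted p = 0.289) and MAFK (-0.11, adjusted p = 0.128) were not called.

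The ubiquitin genes RPS27A and UBB were raised, by 0.36 and 0.24 on the log2 scale, and 6 genes for activating enzymes and shuttle factors were lowered. Beside these, 34.1% of all tested genes were raised and 33.7% lowered, and a difference from those shares was not tested. RPS27A, chosen after its values were seen, makes ubiquitin fused to a ribosomal protein and had 761, 753 and 724 CPM without exposure and 913, 943 and 1010 CPM with monensin, with no overlap. UBB, a polyubiquitin gene, was not called with GC and length trends removed (adjusted p = 0.101). The activating enzymes UBA1 and UBA6 fell by 0.39 and 0.49. The shuttle factors RAD23B, UBQLN1, UBQLN2 and UBQLN4, which carry tagged proteins to the proteasome, were lowered, with log2 fold changes of -0.38 to -0.28.

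**Figure D4:**
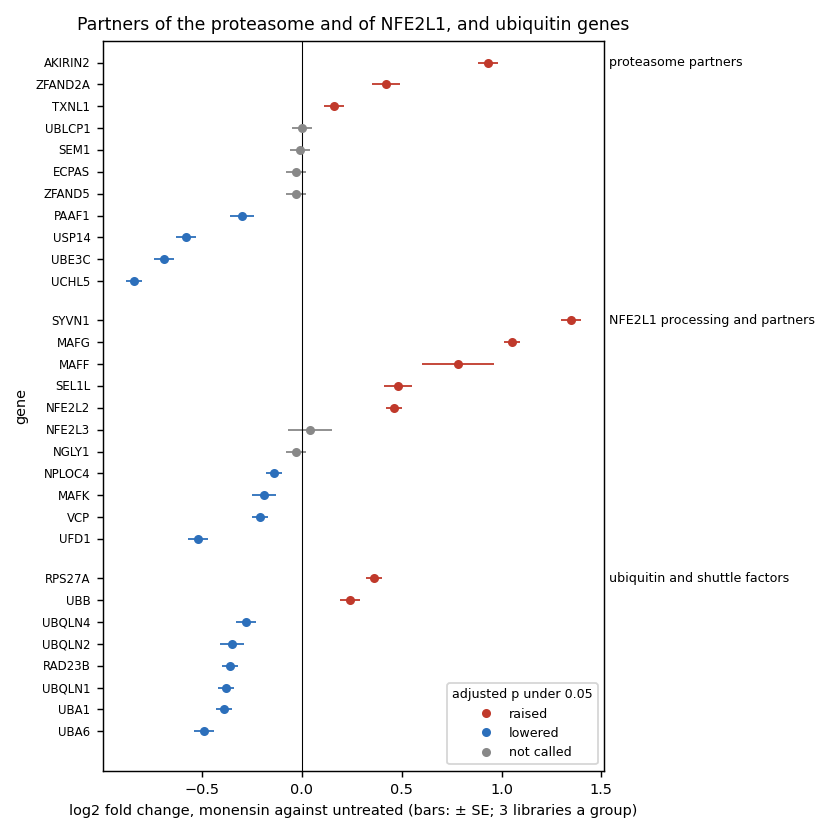
Log2 fold change (x axis, ± SE) of the 30 tested genes for proteasome partners, NFE2L1 processing and ubiquitin, monensin against untreated, with genes on the y axis by list and coloured by their call at an adjusted p under 0.05. SYVN1 at 1.35 and MAFG at 1.05 lie farthest right and UCHL5 at -0.84 farthest left, with 10 raised and 14 lowered genes.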

How the data were processed

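RNA was extracted with Trizol and sequenced as single reads of 75 nt from strand-marking libraries, per the labels' protocols. The authors deposited raw counts of reads per gene in each library, not normalized. Per the submitters' processing notes, reads were handled with bcl2fastq and Trimmomatic 038, and HISAT2 2.1.0 was used with the build GRCh38. The same notes name HTSeq 0.11.1, and DESeq2 1.22.2. The annotation, the RNA selection and whether counting used strand were not given in the sources used here. Besides the counts, the authors deposited a list of 2410 genes with log2 fold changes. The 5 tally lines of unassigned reads (19.08% to 19.79% of alignments in untreated and 21.18% to 21.97% in monensin libraries) stayed out of library sizes and tests.

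Counts were fitted over all genes by the quasi-likelihood test of edgeR 4.0.16 (R 4.3.3), after filterByExpr and TMM scaling, with treatment as the only term. Standard errors were derived from the coefficient and its F statistic. The scripts were tested on simulated data. Exonic lengths, GC content, positions and exon sharing came from GENCODE 29 on GRCh38, and CPM per kb uses the union of exons. No pair of libraries was identical.

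Members were taken by symbol and sorted by role. The members and lists were chosen with earlier results of these data known. Some related genes, a marker and a promoter window are not reported here, and counts of related genes are without those genes. Values in every library are given for up to 3 members a role with the largest absolute log2 fold change, the catalytic genes, PSME1, PSME2, POMP, ADRM1, NFE2L1 and DDI2, and up to 4 related genes in each direction whose average log2 CPM is 2 or more, which leaves out MAFF. PSMD4, RPS27A, the neighbours and the other members named were chosen after their values were seen. The alternatives were RLE and total-count scaling, no filter on low counts, a filter of at least 1 CPM in 3 libraries with 50 counts over all, DESeq2 1.42.0, the replicate number as a block, GC and length trends removed by splines, each library left out, an adjusted p under 0.01, library sizes without the mitochondrial chromosome, and the longest transcript for length.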

Additional observations from a re-analysis of the deposited data

How the results depend on the processing

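The counts of lowered members ran from 28 (total-count scaling) to 37 over the settings tried. Leaving out each library in turn gave 32 to 37 lowered and 2 to 3 raised, and DESeq2 called 36 lowered and 3 raised. Of the 36 lowered members, 24 kept the call in all 15 other fits at 0.05, and 30 of 50 members kept their call in every fit. At an adjusted p under 0.01, 33 were lowered and 2 raised.

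With total-count scaling 6 members were raised, adding PSMA4, PSME1 and PSMD10, and the median log2 fold changes were -0.12 for the core (-0.21 with TMM), -0.06 for the immunoproteasome (-0.14), -0.26 for the regulatory particle (-0.35) and -0.10 for the assembly factors (-0.19). Without 1 library the median of the regulatory particle ranged from -0.39 to -0.33 and that of the immunoproteasome from -0.21 to -0.09. With GC and length trends removed 7 members were raised, and the medians were -0.33 for the immunoproteasome and -0.29 for the assembly factors. That setting turned the log2 fold changes of PSMD4 (-0.00888), PSME1 (-0.18), PSMB1 (0.00753), PSMA5 (0.13) and PSMC2 (0.18). Among related genes it turned ECPAS (0.11), SEM1 (0.16), UBLCP1 (0.18), ZFAND5 (0.23) and NGLY1 (0.24). The cause was not tested.

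Same-numbered libraries deviated with correlations of -0.119, 0.14 and 0.041, and differently numbered ones with -0.2 to 0.159. These values show no clear pairing by number, but cannot tell whether same-numbered samples were handled together. With the replicate block 35 members were lowered and 2 raised, since PSMA5 (adjusted p = 0.072) and PSMD4 (adjusted p = 0.0505) missed the threshold. The replicate block together with GC and length trends removed gave 7 raised members, medians of -0.33 and -0.29 as above, PSMD4 at -0.00872, PSMB1 at 0.00668 and the other turned genes at the same values to 2 decimals. The related gene TXNL1 lost its call without untreated replicate 3 or monensin replicate 2 (adjusted p = 0.0651 and 0.0748). Genes with few counts, such as PSMD9, have wide errors.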

Other observations

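Of the 4 tested antisense and divergent genes named after members, 3 were raised while the member was lowered. Over all tested genes 34.1% were raised, and a difference from that share was not tested. PSMA3-AS1 was raised from 53.6 ± 4.03 CPM without exposure to 69.3 ± 2.43 CPM with monensin (mean ± SD of 3 libraries; log2 fold change 0.37, SE 0.06, edgeR adjusted p = 3.58e-05), while PSMA3 fell. PSMB8-AS1 was raised from 33.9 ± 0.258 to 39.5 ± 2.69 CPM (log2 fold change 0.22, adjusted p = 0.00358) while PSMB8 fell, and it missed the threshold with GC and length trends removed (0.12, adjusted p = 0.0502). PSMG3-AS1 was raised from 7.86 ± 0.694 to 11.6 ± 0.898 CPM (log2 fold change 0.56, adjusted p = 5.85e-05), while PSMG3 was lowered with a call that 1 library could remove. PSMD6-AS2 was not called (log2 fold change -0.35, adjusted p = 0.318). Without a stated strand setting, reads of a gene and of an antisense partner that overlaps it cannot be told apart in the counts.

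Pseudogene copies of member genes were also counted, and of the 7 that were tested only PSMD12P was called. The others had edgeR adjusted p-values from 0.151 to 0.847. PSMD12P, an unprocessed copy of PSMD12, fell by 0.74 on the log2 scale (adjusted p = 0.00123) beside PSMD12 itself at -0.64, and reads of one may have been assigned to the other.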
